A study of Homo sapiens with 4 samples.

Results

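The circadian clock is a feedback loop in which the activators CLOCK and BMAL1 bind E-boxes and switch on their own repressors, the period (PER) and cryptochrome (CRY) genes, and CIART, whose protein represses CLOCK and BMAL1. In a second loop the nuclear receptors REV-ERB alpha (NR1D1) and REV-ERB beta (NR1D2) repress BMAL1 through elements called ROREs, while ROR receptors activate the same elements. Output factors of the PAR bZIP family, DBP and TEF among them, carry the rhythm to D-box genes. SIAH2, the ubiquitin ligase depleted here, is a reported ligase for REV-ERB alpha. A set of 10 clock genes was followed, namely CIART, PER1, PER2, PER3, NR1D1, NR1D2, DBP, TEF, BHLHE40 and BMAL1, with every probe annotated to one of them as a member. Of these, 8 had a named probe, 1 each, among 47228 probes on the array. NR1D1 and BHLHE40 had none and were not analysed here.

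Both groups were CWR22Rv1 cells, a human prostate carcinoma line from a xenograft that relapsed after castration, grown in RPMI1640 medium with serum and puromycin. The pLKO.1 group (2 arrays) carried the control vector, and the shSiah2 group (2 arrays) expressed an shRNA against Siah2. The labels name no hairpin and do not say whether a line was 1 clone, nor do they give an hour of harvest or a treatment that would synchronise the clock. They also do not say whether replicates were separate cultures, so the p-values measure the spread between these arrays, which may be technical.

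Between 19862 and 20632 probes were detected per array (detection p under 0.05), and precision was set by having 2 arrays in a group. The SIAH2 probe had deposited signals of 334.5 and 490.5 on the pLKO.1 arrays and 185.2 and 196.8 on the shSiah2 arrays. SIAH2 fell, in the direction that the knockdown label names, by 1.85 on the log2 scale (SE 0.251, limma adjusted p = 0.00117). Of 10 tested genes that mark luminal prostate lines, all were detected on all 4 arrays, 0 rose, and SLC45A3, HOXB13, STEAP2, TMPRSS2 and FOLH1 fell, with changes from -3.31 (SLC45A3) to -1.08 (FOLH1), where 4.51% of all named genes fell. The other 5 did not pass, with KRT8 (0.34), EPCAM (0.27), CDH1 (0.16) and FOXA1 (0.10) above 0 and KRT18 (-0.09) below it. Of 6 tested stromal and leukocyte markers, LUM rose by 1.32, ACTA2 rose by 1.10 and DCN fell by 1.98, and CD14, CD68 and COL1A1 did not pass. Over all named genes 2.72% rose and 4.51% fell. Another DCN probe, detected on the shSiah2 arrays alone, lay the other way at 0.67 and did not pass. The calls of TMPRSS2, FOLH1, LUM and ACTA2 were lost without pLKO.1 replicate 1, those of FOLH1 and ACTA2 also without pLKO.1 replicate 2 or shSiah2 replicate 1, and that of TMPRSS2 also without shSiah2 replicate 2. The summed signal of the 6 was 2627 and 3809.3 on the pLKO.1 arrays against 5312.6 and 4427.3 on the shSiah2 arrays. Of these sums LUM alone gave 1022.2 and 1537.7 against 2649.4 and 2698.7. The summed signal of the 10 luminal markers was 30236.9 and 41779.2 on the pLKO.1 arrays against 30424.3 and 24771.5 on the shSiah2 arrays. An undetected probe still carried a signal, as CD14 did on pLKO.1 replicate 1 (124.7), so a signal above 0 does not show expression. COL1A1 was detected on 2 arrays and CD14 on 3. The part of these 6 markers in the clock gene values was not tested.

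RefSeq promoters show where the clock's own binding motifs lie in these genes. All 10 genes had at least 1 annotated start (14 windows of 250 bases before a start, GRCh38.p14). Both strands were searched for the E-box CACGTG, the D-box TTATGNAA, the cyclic AMP element TGACGTCA and the RORE consensus, and no match overlapped another. The E-box was found in 6 of the 14 windows, those of CIART, PER1 and BHLHE40, both of TEF and 1 of the 2 of NR1D2, against 6.345% of all 35116 windows. CIART had 3 E-boxes, and 0.0797% of all windows had 3 or more. The D-box lay before PER1, PER3 and NR1D2 (3.03% of all windows), and the RORE consensus before NR1D2 alone of the 10 (0.265%). No member window held the cyclic AMP element, which 1.65% of all windows held. A match describes letters in a window and does not show binding. The windows of CIART, PER1 and TEF are shown because these genes share an E-box and had different log2 changes (-3.40, 0.97 and -0.68). That of TEF did not pass. NR1D2, with 2 E-boxes in 1 window, lay at -0.22 and is not shown. A link between E-boxes and the changes was not tested. The windows shown lie at chr1:150282304-150282553 (plus strand), chr17:8152405-8152654 (minus strand) and chr22:41367205-41367454 (plus strand). Capitals mark E-boxes and, in PER1, the D-box.
CIART: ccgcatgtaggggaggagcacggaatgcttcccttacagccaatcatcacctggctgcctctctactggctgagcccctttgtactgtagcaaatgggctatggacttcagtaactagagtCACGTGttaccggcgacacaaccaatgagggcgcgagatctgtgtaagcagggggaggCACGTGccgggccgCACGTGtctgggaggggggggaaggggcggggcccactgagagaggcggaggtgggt
PER1: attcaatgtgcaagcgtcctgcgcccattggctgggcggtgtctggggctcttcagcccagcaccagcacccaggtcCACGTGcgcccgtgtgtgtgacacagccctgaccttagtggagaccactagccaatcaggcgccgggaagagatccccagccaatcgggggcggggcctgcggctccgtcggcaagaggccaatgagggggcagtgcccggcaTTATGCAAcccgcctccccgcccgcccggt
TEF: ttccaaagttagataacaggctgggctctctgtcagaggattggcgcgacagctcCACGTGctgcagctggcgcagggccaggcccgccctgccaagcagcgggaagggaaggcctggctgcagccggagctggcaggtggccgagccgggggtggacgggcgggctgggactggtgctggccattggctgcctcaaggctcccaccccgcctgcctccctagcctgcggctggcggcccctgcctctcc
In CIART the E-boxes began 129, 71 and 57 bases before the start, the latter pair close together. In PER1 the E-box began 173 bases before it and the D-box 30 bases before it.

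The comparison asked how the RNA of each clock gene differed between knockdown and control cells. CIART fell about 10.6-fold, PER1 rose from below detection, and the other 4 tested members did not pass the threshold. Of the 8 members, 6 passed the filter that a probe be detected on at least 2 arrays. Of those 6, 1 fell and 1 rose, where 6.19% of all 20750 tested probes were called, 3.72% lower and 2.47% higher. The rise was that of PER1, which passed the filter only through the arrays on which it was high and was not called without the filter (adjusted p = 0.0634). In 5 of the 6 tested members the arrays of the groups did not overlap, against 50.3% of all tested probes, so that order alone said little about a gene. Here and throughout, rose and fell mean an adjusted p under 0.05 by limma over all tested probes, and changes are shSiah2 minus pLKO.1 in normalized log2 intensity. In RNA from a bulk culture, fewer expressing cells and less RNA per cell cannot be told apart.

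**Figure D1:**
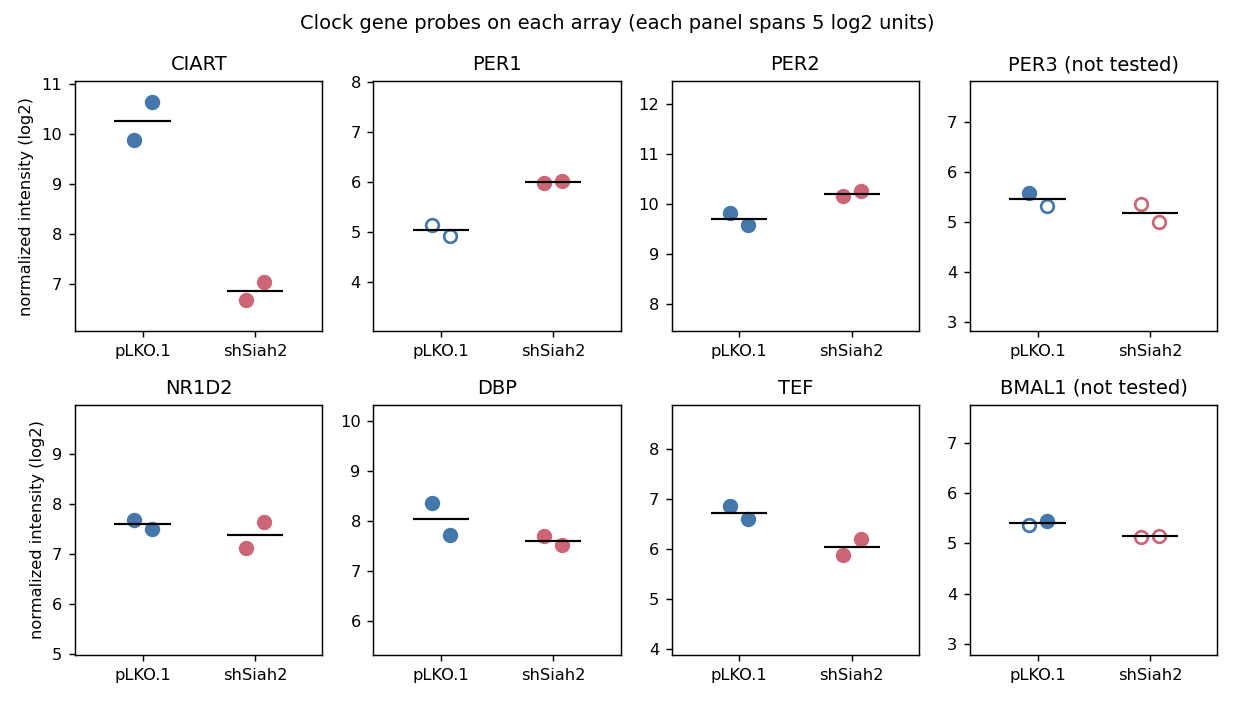
Normalized log2 intensity (vertical axis) of each clock gene probe on the 2 pLKO.1 arrays (blue) and the 2 shSiah2 arrays (red), with the group mean as a black line. Filled points were detected and open points were not, and CIART drops from above 9.8 to near 7 while PER1 is detected on the shSiah2 arrays only.

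CIART, the repressor also called CHRONO, had deposited signals of 916.2 and 2092.7 on the pLKO.1 arrays and of 215.3 and 232.7 on the shSiah2 arrays (probe ILMN_1793543). Every knockdown value was below every control value, and since all 4 arrays passed detection, the low values were still above background. The normalized level was 10.26 ± 0.548 (SD, n = 2) in pLKO.1 and 6.86 ± 0.256 (SD, n = 2) in shSiah2 cells. The change was -3.40 (SE 0.296, 95% interval -4.05 to -2.76, limma adjusted p = 4.73e-05). The control arrays differed more from each other than the knockdown arrays did. When pLKO.1 replicate 2, the higher of the control arrays, was left out, the change was -3.01, and without pLKO.1 replicate 1 it was -3.79. CIART passed in all 12 alternative settings tried, the smallest value being -2.57 without background correction. By size of fall it ranked 12 among 11894 named genes with a tested probe.

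No tested period gene fell with CIART, though a fall of PER1, undetected on the control arrays, could not have been seen. PER1, the period gene most readily induced by outside signals, had deposited signals of 128.2 and 124.1 on the pLKO.1 arrays, where it was not detected, and of 174.6 and 173.5 on the shSiah2 arrays, where it was. The knockdown arrays both lay above the control arrays, but PER1 entered the test only through the group in which it was high. PER1 rose by 0.97 (SE 0.241, 95% interval 0.44 to 1.49, limma adjusted p = 0.0371), which as a bound is at least 1.46-fold. That bound sets the knockdown mean against the lowest detected value on each control array. The call was lost when any 1 of the 4 arrays was left out (0.86 to 1.07, adjusted p 0.066 to 0.159), without background correction (0.37) and with the authors' value table (0.54).

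PER2, whose protein joins cryptochromes in the core repressor complex, was bright on all arrays, at 887.7 and 1049.8 in pLKO.1 and 1296 and 1156.3 in shSiah2 cells. The knockdown arrays were higher without overlap, and the change of 0.50 did not pass (SE 0.243, 95% interval -0.03 to 1.03, limma adjusted p = 0.269). PER3, a period gene dispensable for the core rhythm in mice, lay near background, with signals of 143.7 and 142.1 in pLKO.1 and 149.7 and 135.8 in shSiah2 cells. It was detected on pLKO.1 replicate 1 alone and was not tested. Its arrays overlapped, and the fit without the detection filter gave it -0.28 (adjusted p = 0.680).

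**Figure D2:**
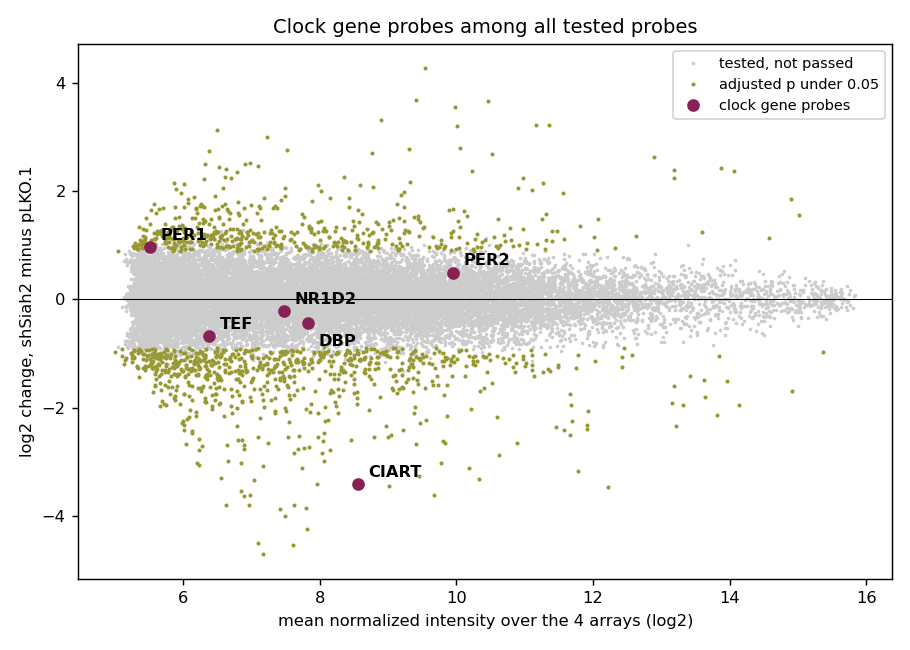
Each point is a tested probe, with its mean log2 intensity over the 4 arrays on the horizontal axis and its log2 change, shSiah2 minus pLKO.1, on the vertical axis. CIART at -3.40 lies far below the grey band of probes that did not pass, PER1 at 0.97 sits on its upper edge at low intensity, and PER2, NR1D2, DBP and TEF lie within it.

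NR1D2 encodes REV-ERB beta, the receptor that shares with NR1D1 the repression of BMAL1. Its signals were 278.2 and 319.2 in pLKO.1 and 251.3 and 291.1 in shSiah2 cells. The arrays of the groups overlapped, and the change was -0.22 (SE 0.263, 95% interval -0.79 to 0.36, limma adjusted p = 0.708). Without shSiah2 replicate 1 the value turned to 0.043. The interval did not reach the change of CIART or that of PER1. BMAL1, the gene on which both REV-ERB receptors act, had signals of 136.2 and 147.5 in pLKO.1 and 140.6 and 142.5 in shSiah2 cells. The deposited signals of the groups overlapped, while the normalized values did not (5.36 and 5.45 in pLKO.1 against 5.13 and 5.15 in shSiah2 cells). Only pLKO.1 replicate 2 passed detection, so BMAL1 was not tested. On the shSiah2 arrays its detection p was 0.156 and 0.149. A fall from background, or a rise that stayed below detection, could not be seen. Without the filter BMAL1 was at -0.27 (limma adjusted p = 0.619).

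The PAR bZIP genes lay lower in the knockdown arrays without passing. TEF, an activator at D-boxes, had signals of 200 and 215.4 in pLKO.1 and 170.3 and 181 in shSiah2 cells. Its groups did not overlap, and the change was -0.68 (SE 0.252, 95% interval -1.23 to -0.13, limma adjusted p = 0.145, unadjusted p = 0.0199). DBP, among the most strongly rhythmic output genes in mouse liver, had signals of 383.9 and 355.5 in pLKO.1 and 324.7 and 278.3 in shSiah2 cells. Its groups were separate by a narrow margin, at -0.43 (SE 0.274, 95% interval -1.03 to 0.17, limma adjusted p = 0.407). The DBP value rested on pLKO.1 replicate 1, since without that array it was -0.11.

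**Figure D3:**
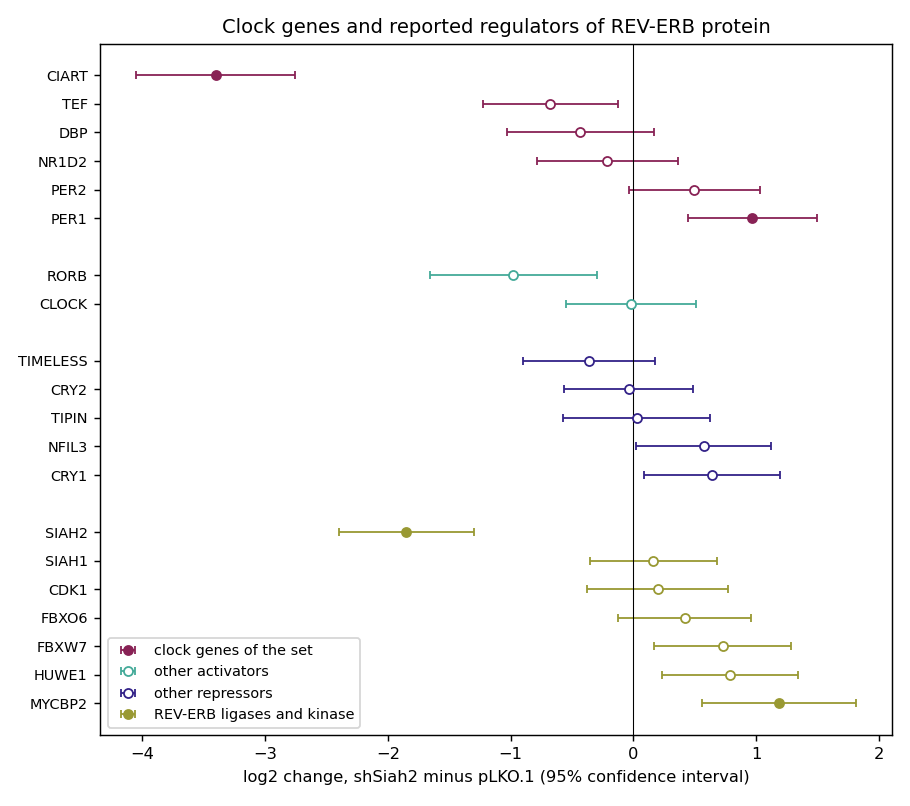
Log2 change, shSiah2 minus pLKO.1 (horizontal axis), with its 95% confidence interval for the tested clock genes, further activators and repressors, and reported regulators of REV-ERB protein, each gene by its brightest tested probe. Filled points passed an adjusted p of 0.05, which CIART, PER1, SIAH2 and MYCBP2 did.

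CIART and PER1 were the called genes in the main setting among 17 tested genes reported as E-box outputs of CLOCK and BMAL1, a list that also holds PER2, DBP and TEF. Over all named genes 7.24% were called. The median change of the 17 was 0.05, and 6 had an unadjusted p under 0.05, as had 2721 of all 11894 named genes (22.9%). GPCPD1, a phosphodiesterase gene of choline metabolism, lay at 1.28 (limma adjusted p = 0.0667). Its control arrays lay far apart, at 5.62 (pLKO.1 replicate 1, detection p 0.036) and 6.85, against 7.19 and 7.85 on the shSiah2 arrays. GPCPD1 passed in 7 alternatives, among them those leaving out pLKO.1 replicate 2 (1.90) or shSiah2 replicate 1 (1.61), in which PER1 did not pass. NAMPT, which makes a precursor of NAD, lay at 0.67 (adjusted p = 0.137). Of the 17, 10 lay above 0 and 7 below it.

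Among the rest of the clock, no tested activator or repressor passed by limma over all probes, and 3 of the 7 had an unadjusted p under 0.05 (22.9% of all named genes). Gene counts use the brightest tested probe of each gene, and 7.24% of all 11894 named genes were called on it. CLOCK, the partner of BMAL1, lay at -0.02 on its brightest probe (95% interval -0.55 to 0.51). A dimmer CLOCK probe, detected on all 4 arrays, lay at 0.64 and did not pass (95% interval 0.03 to 1.25, limma adjusted p = 0.218). RORB, a receptor that activates ROREs, was detected on the pLKO.1 arrays alone and lay at -0.98 (adjusted p = 0.0923). RORB thus entered the test only through the group in which it was high. It passed with the replicate number as a block (limma adjusted p = 0.0481) and without pLKO.1 replicate 1 (-1.47). Leaving out that array, the lower of the controls (5.72 against 6.70), left 1 control array. The cryptochrome gene CRY1, a repressor of CLOCK and BMAL1, lay at 0.64 (adjusted p = 0.174), and CRY2 at -0.04. NFIL3, which represses D-box genes, lay at 0.57 (adjusted p = 0.218). TIMELESS and TIPIN, partners at the replication fork, lay at -0.36 and 0.03. NPAS2 and BMAL2 were each detected on 1 array and were not tested.

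Since SIAH2 is a reported REV-ERB alpha ligase, the other genes reported to act on REV-ERB protein were set beside it. Of 7 tested, SIAH2, itself the target of the shRNA, fell and MYCBP2, a large ubiquitin ligase, rose. Over all named genes 4.51% fell and 2.72% rose. The median change of the 7 was 0.42 against 0.01 over all named genes. MYCBP2 had signals of 274.6 and 467.5 in pLKO.1 and 600.2 and 696.1 in shSiah2 cells. It rose by 1.19 (SE 0.288, limma adjusted p = 0.0332). That call was lost when pLKO.1 replicate 1 (0.89) or shSiah2 replicate 2 (0.93) was left out, and with no filter on dim probes. The ligase genes HUWE1 and FBXW7 lay at 0.79 and 0.73, FBXO6 at 0.42 and the kinase gene CDK1 at 0.20, none past the threshold. Dimmer FBXW7 probes lay at 0.16 and 0.26 and did not pass. SIAH1, the close relative of SIAH2, lay at 0.16 on its brightest probe.

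Genes reported as RORE or REV-ERB targets, many of them from work in mouse tissues, gave 6 falls and 0 rises among 11 tested, with a median of -1.18. Over all named genes 4.51% fell. This list was put together with the earlier results for several of its lipid genes in view, so its count is no independent evidence. CD36 and LPL, 2 of the 6, entered the test only through the pLKO.1 arrays, the group in which they were high. The 5 that did not pass included CLOCK, CRY1 and NFIL3, given above. The others were the sterol regulator INSIG1 at -0.89 (limma adjusted p = 0.0511) and the glucose-6-phosphatase gene G6PC1 at 0.48 (limma adjusted p = 0.331). INSIG1 passed as a fall in several alternatives, among them the authors' value table (-0.94) and no background correction (-0.84). It passed in no fit without 1 array. The 6 that fell were the fatty acid-binding protein gene FABP7 (-3.87), the fatty acid transporter gene CD36 (-3.54), the lipid synthesis regulator SREBF1 (-2.34), the lipoprotein lipase gene LPL (-1.58), the lipid droplet gene PLIN2 (-1.29) and the gap junction gene GJA1 (-1.18). CD36 and LPL were detected on the pLKO.1 arrays alone and fell at least 8.93-fold and at least 2.67-fold. PLIN2 did not pass without pLKO.1 replicate 1 (-1.21). Leaving out pLKO.1 replicate 1 (-1.25), pLKO.1 replicate 2 (-1.10) or shSiah2 replicate 1 (-0.99) ended the call of GJA1. The median was -0.75 without background correction and -0.69 with no filter on dim probes.

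PER1 is also induced outside the clock loop, by cyclic AMP and CREB, by serum and by glucocorticoid. Of 24 tested genes of these routes, 8 rose and 0 fell, where 2.72% of all named genes rose, and the median change was 0.61. Part of this list, too, was known from earlier results to rise. The 8 were the stress-induced factor ATF3 (2.69), the CREB-induced kinase gene SIK1 (2.35), the orphan receptor NR4A2 (1.86), KLF10 (1.81), the immediate-early genes FOS (1.43) and EGR1 (0.92), the glucocorticoid receptor NR3C1 (1.39) and the CREB coactivator CRTC1 (1.33). The count was 5 without pLKO.1 replicate 2. EGR1 did not pass when any 1 array was left out (0.78 to 1.06), and CRTC1 did not pass without pLKO.1 replicate 2 (0.93) or without background correction (0.55). Both calls also ended with no filter on dim probes (adjusted p = 0.0903 for EGR1 and 0.0832 for CRTC1), and that of EGR1 with scaling to the 75th percentile (0.0557). For NR3C1 the call ended on leaving out pLKO.1 replicate 2 (1.28) or shSiah2 replicate 2 (1.10). Of the 24 genes, 17 lay above 0 and 7 below it. The 7 were KLF9 (-0.39), SIK2 (-0.33), JUNB (-0.31), FOSB (-0.26), SRF (-0.25), CRTC3 (-0.24) and FKBP5 (-0.22), none past the threshold. A dimmer SIK2 probe, detected on 3 arrays, lay the other way at 0.56 and did not pass. The glucocorticoid-induced genes FKBP5, KLF9, SGK1 (0.53) and TSC22D3 (0.47) were not called, and the routes were not compared.

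**Figure D4:**
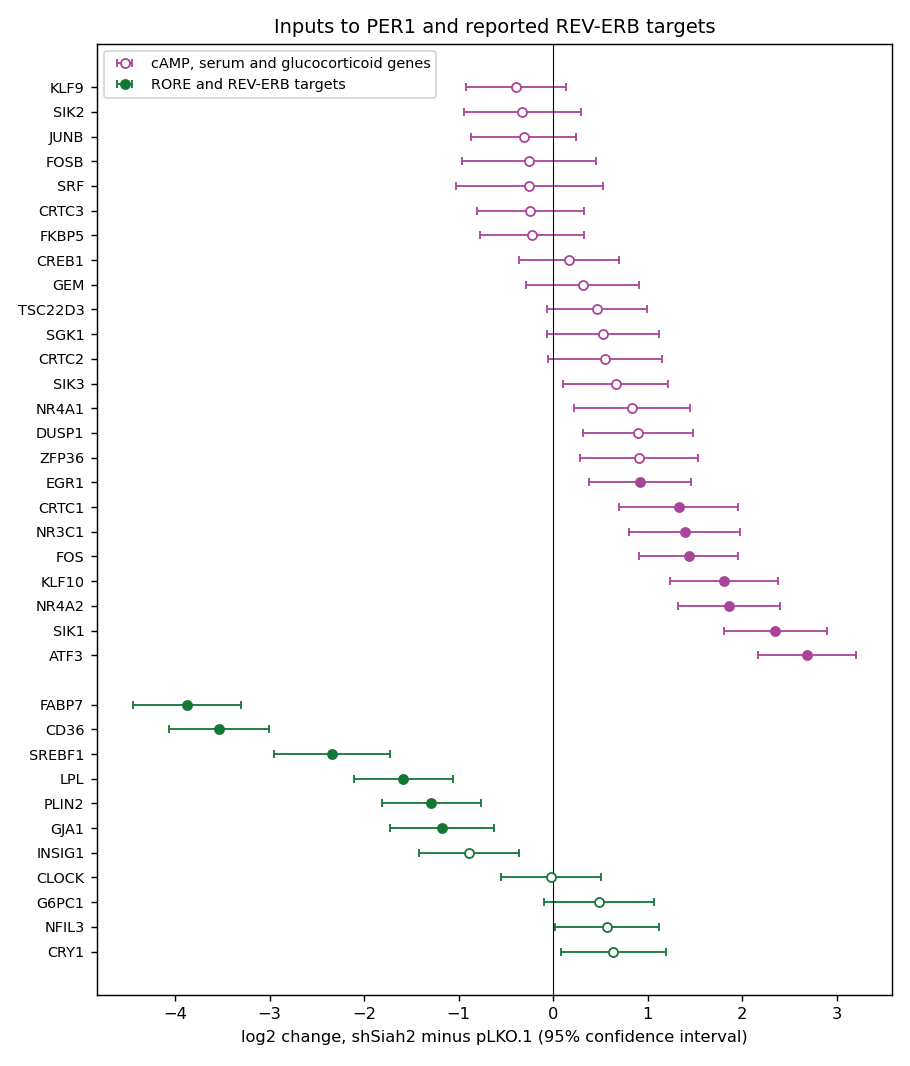
Log2 change, shSiah2 minus pLKO.1 (horizontal axis), with its 95% confidence interval for 24 genes of the routes that induce PER1 (purple) and 11 reported RORE or REV-ERB targets (green), each by its brightest tested probe. Filled points passed an adjusted p of 0.05, and they lie above 0 for 8 purple genes and below 0 for 6 green ones.

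The genes nearest to CIART and PER1 in profile were found by the Euclidean distance between values on the 4 arrays, each probe centred on its own mean, over 15883 named probes of other genes. For CIART these were the neurotensin gene NTS at 0.433, the glucagon gene GCG at 0.489, the butyrylcholinesterase gene BCHE at 0.500, CD36 (by a probe at -3.80) at 0.508 and TMEFF2, a transmembrane protein gene, at 0.516. A flat profile would lie 3.46 from CIART. In all 5, as in CIART, pLKO.1 replicate 2 was the highest array. For PER1 they were JKAMP at 0.0349, NFKB2 at 0.0430, TSC22D1 at 0.0439, PIK3C2A at 0.0772 and KLHL28 at 0.0918. With 4 arrays in 2 groups, such a distance mostly reflects the size of the group difference.

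**Figure D5:**
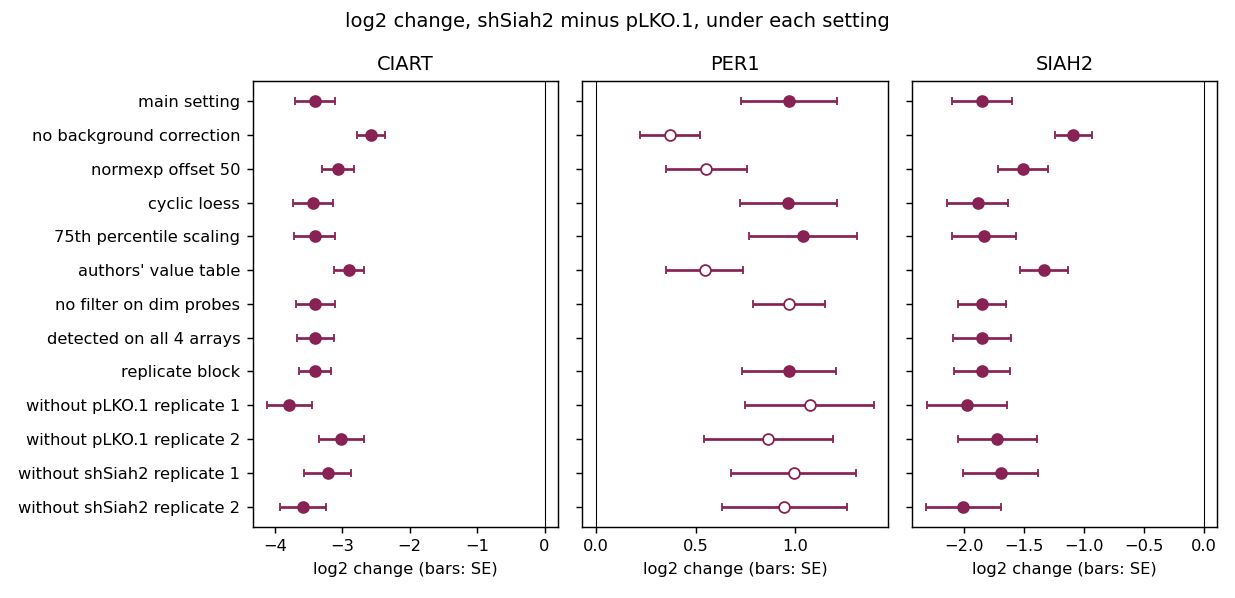
Log2 change, shSiah2 minus pLKO.1 (horizontal axes), of CIART, PER1 and SIAH2 under the main setting and each alternative (vertical axis), with the SE as a bar. Filled points passed an adjusted p of 0.05. CIART and SIAH2 passed in all 12 alternatives, and PER1 in 3 of the 11 in which it was tested.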

How the data were processed

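Expression was measured in 4 samples on Illumina bead arrays. The authors deposited a table of linear intensity per probe with a detection p-value per array (per the file headers), and a second table whose deposited values are on a log2 scale, judged from slopes of 1.01 to 1.02 against the log2 of bright signals. The array software, and how the second table was scaled, were not given in the sources used here. Its column medians were 7.60 and 7.61 (pLKO.1) and 7.59 and 7.62 (shSiah2).

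The intensities were background-corrected from the detection p-values, given an offset of 16, quantile normalized and logged with neqc of limma 3.58.1 (R 4.3.3). Probes detected on at least 2 arrays (20750) went into a two-sided test with lmFit and eBayes, adjusted by Benjamini-Hochberg over all of them, after the code was tested on simulated data. Platform gene names were updated through Entrez IDs to RefSeq symbols. Of the probes, 18007 had 1 symbol, 4 had several and 29217 were unnamed here.

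Text names every member, SIAH2, the called genes and up to 6 genes with the largest change in each of 11 further lists, and the 5 nearest profiles of each called member. KRT18, EPCAM, CDH1, FOXA1, INSIG1 and G6PC1 complete the account of 2 lists. KLF9, SIK2, JUNB, FOSB, SRF, CRTC3, FKBP5, SGK1, TSC22D3, EZH2 and HDAC1 fill in others. All of these were added after their values were seen. Members and lists were chosen with earlier results of these data known. Alternatives changed the background correction, normalization, source table, filter, replicate block, arrays used and handling of several probes per gene.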

Additional observations from a re-analysis of the deposited data

How the results depend on the processing

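CIART kept its direction and its side of the threshold in every alternative run (-3.79 to -2.57), and SIAH2 did so too (-2.00 to -1.09). PER1 did not pass with uncorrected background (0.37), a normexp offset of 50 (0.55), the authors' value table (0.54) or no filter on dim probes (0.97), and without 1 array it lay between 0.86 and 1.07. With detection required on all 4 arrays PER1 was not tested. One member in place of 2 was therefore called (1 in each case) in those fits and in all fits without 1 array. NR1D2 ranged from -0.47 to 0.043 when single arrays were left out and was above 0 without shSiah2 replicate 1. PER2, DBP and TEF passed in none of 12 alternatives. The count of all called probes was 640 with no filter and 520 to 1329 without 1 array (520 without pLKO.1 replicate 1, 800 without shSiah2 replicate 2). The untested BMAL1 difference of -0.27 was -0.10 without background correction. Each member has 1 probe, so averaging probes changes none. Same-numbered arrays deviated together only weakly (correlation 0.0891 across probes) and share only a number. A replicate block gave 1815 calls and changed no member's call, with PER1 at 0.97. The causes were not tested. Dim probes (PER1, PER3, BMAL1) limit what could be detected.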

Other observations

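Of 21 tested clock kinases, phosphatases and ligases, 0 were called on their brightest probe by limma, and 3 had an unadjusted p under 0.05 (22.9% of all named genes). GSK3B passed without background correction (-0.55) and with the authors' value table (-0.62). The largest differences were the F-box gene BTRC at 0.64, the kinase genes GSK3B at -0.62 and DYRK1A at 0.57, DDB1, an adaptor of CUL4 ligases, at 0.47, the deubiquitinase gene USP14 at 0.44 and the kinase gene CSNK2A1 at 0.40. Another DDB1 probe rose by 0.96 (adjusted p = 0.0445 by limma). Its call was lost with no filter on dim probes and on leaving out pLKO.1 replicate 1 (0.83), pLKO.1 replicate 2 (1.10) or shSiah2 replicate 2 (0.81). Of 18 tested chromatin cofactors of the clock, 1 was called (5.56%), against 7.24% of all named genes. It was the protein kinase gene PRKCA, which rose by 1.22 (adjusted p = 0.0160 by limma), though not without pLKO.1 replicate 1 (1.00). The deacetylase gene SIRT1 lay at 0.93 and NAMPT, which makes its cofactor's precursor, at 0.67, and neither passed in the main setting. SIRT1 passed in some alternatives, among them the authors' value table (0.79) and no background correction (0.72). KMT2A (0.71), EP300 (0.53) and KAT5 (0.40), which modify histones, did not pass either. Of the 18, 13 lay above 0 and 5 below it, the histone modifier genes EZH2 (-0.39) and HDAC1 (-0.34) among the latter. Dimmer EZH2 probes lay at 0.03 and 0.02.

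Of 8 tested genes reported as targets of the PAR bZIP factors, 1 fell and 0 rose, with a median of 0.01. Over all named genes 4.51% fell and 2.72% rose, and 1 gene of 8 cannot be told from such shares. The drug-metabolizing enzyme gene CYP2C8 fell by 1.42 (adjusted p = 0.00554 by limma, at least 2.41-fold). CYP2C8 was detected on the pLKO.1 arrays alone, so it entered the test only through the group in which it was high. KLF15 lay at -0.81 (adjusted p = 0.0690). The aryl hydrocarbon receptor gene AHR lay at 0.34 on its brightest probe and EPAS1, a hypoxia-inducible factor gene, at 0.22, while another AHR probe rose by 1.69 (adjusted p = 0.00155 by limma). The difference between the probes was not tested. The haem synthesis gene ALAS1 and the P450 reductase gene POR, both D-box genes in mouse liver, lay at -0.16 and 0.20.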
